A study of Mus musculus with 6 samples.

Results

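The 47 genes described here encode the machinery that copies DNA in S phase and the factors that bring a cell into it. They were chosen by name and by role, with earlier results of these data known. The roles are 6 genes of origin recognition and licensing, 7 MCM genes and 5 genes of helicase activation. A further 8 are genes of the sliding clamp, its loader and the single-strand binding protein RPA, and 10 are genes of the polymerases and of strand maturation. The rest are 4 genes of nucleotide supply, 4 genes of G1/S control and 3 genes of chromatin assembly and histone mRNA. They are 47 of the 17348 genes measured, and all 47 passed the filter on low counts that left 13340 genes for testing. RNA was taken from the cortex of mouse embryos at E13.5 and sequenced in 3 libraries from WT embryos and 3 libraries from cKO embryos. The cKO embryos carried floxed alleles of Ybx1 (Ybx1 fl/fl) and the Nestin-Cre transgene, which is active in neural progenitors and is inherited by their progeny, so that the floxed exons are removed in those cells. The controls are labelled WT, the study's methods call them wild type littermates and its results describe controls as Ybx1 fl/fl without Cre, and the alleles of each control embryo are not given in the sources used here. Whether a library held 1 embryo or several is not stated either.

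Before a cell enters S phase, the origin recognition complex with Cdc6 and Cdt1 loads the MCM helicase onto DNA, and geminin (Gmnn) blocks further loading once replication has begun. During G1, D-type cyclins with Cdk4 and Cdk6, and then cyclin E with its kinase, release E2F from Rb. E2F switches on many of the genes listed here. At the start of S phase, Cdc45 and the GINS complex turn the loaded MCM ring into an active helicase. Behind it polymerases, clamp and ligase copy both strands. In the embryonic cortex this takes place mainly in radial glia and intermediate progenitors, while neurons have left the cycle, and the study asked whether the RNA-binding protein Ybx1 promotes the passage of cortical progenitors from G1 to S. In RNA from whole cortex, fewer cycling cells and less replication mRNA per cell cannot be told apart.

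Promoter sequences are shown for the 3 most abundant of these genes that hold a match to an E2F motif, because E2F is the regulator that the replication genes are known to share. The stretches run from 250 bases before to 30 bases after the annotated start site, on the minus strand of GRCm38.p6 as given by RefSeq, and are written 5′ to 3′ with motif matches in capitals. Mcm7 lies at chr5:138171854-138172133, Mcm6 at chr1:128359676-128359955 and Mcm3 at chr1:20820283-20820562.
Mcm7: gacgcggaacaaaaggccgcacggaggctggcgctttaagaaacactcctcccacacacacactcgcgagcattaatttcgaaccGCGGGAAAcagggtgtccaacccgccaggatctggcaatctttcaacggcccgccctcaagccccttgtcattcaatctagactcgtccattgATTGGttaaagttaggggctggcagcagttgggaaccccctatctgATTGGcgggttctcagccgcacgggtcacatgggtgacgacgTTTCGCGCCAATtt
Mcm6: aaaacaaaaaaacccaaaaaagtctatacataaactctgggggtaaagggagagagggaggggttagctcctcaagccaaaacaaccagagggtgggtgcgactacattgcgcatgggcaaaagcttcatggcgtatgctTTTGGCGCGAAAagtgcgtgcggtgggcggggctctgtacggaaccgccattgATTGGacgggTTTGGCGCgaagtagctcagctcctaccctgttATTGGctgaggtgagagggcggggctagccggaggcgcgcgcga
Mcm3: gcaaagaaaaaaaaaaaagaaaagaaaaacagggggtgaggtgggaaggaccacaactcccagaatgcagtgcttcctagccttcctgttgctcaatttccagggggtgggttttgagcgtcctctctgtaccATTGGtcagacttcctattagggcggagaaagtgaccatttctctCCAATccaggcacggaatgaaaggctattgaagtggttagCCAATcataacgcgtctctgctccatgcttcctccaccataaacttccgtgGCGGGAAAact
The capitals mark TTTCCCGC, TTTGCCGC, TTTCGCGC or TTTGGCGC (E2F) and CCAAT, each searched on both strands, so that GCGGGAAA and ATTGG mark matches on the other strand. In Mcm6 a pair of E2F matches on opposite strands overlap in TTTGGCGCGAAA, at -110 to -103 and -106 to -99 from the start site, and 1 further E2F match lies at -47 to -40. In Mcm7 the E2F match at 17 to 24 shares its last base with a CCAAT match at 24 to 28. Mcm3 has 1 E2F match in the stretch shown, at 20 to 27, and 3 CCAAT matches upstream of the start site.

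The same search was made in 1 window for each gene, 250 bases before to 50 bases after the start site. A window was at hand for 38 of the 47 genes. Of these 38, 14 held an E2F match (36.8%), compared with 444 of 10638 tested genes with a window (4.17%) and 626 of all 27025 windows (2.32%). A CCAAT match was present in 23 of the 38 (60.5%), in 39.2% of the tested genes and in 37.9% of all windows. Both kinds of match stood together in 9 of the 38 (23.7%), in 1.82% of the tested genes and in 1.01% of all windows. The replication genes thus held both motifs more often than other genes did, by count and without a test. A match describes letters in a window and does not show that a factor binds there.

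Some facts on the libraries bear on every value below. The libraries held between 15907490.86 and 16282929.03 estimated counts, and the smallest count of any of the 47 genes in any library was 123. Ybx1 itself reached 1021, 528 and 1220 CPM (counts divided by the TMM-scaled library size, on a scale common to all libraries) in WT replicates 1, 2 and 3, and 83.1, 117 and 147 CPM in cKO replicates 1, 2 and 3. Of these, the library labelled WT replicate 2 lay between its group and the cKO libraries. The log2 fold change of Ybx1 was -2.998 (SE 0.33), and its adjusted p of 0.128 in edgeR's quasi-likelihood test did not pass 0.05. Without the library labelled WT replicate 2 it was -3.28 with an adjusted p of 0.0206 in the same edgeR test. Leaving out any other single library gave Ybx1 an adjusted p of 0.236 to 0.953 in that test. The cKO replicate 3 library held transcripts of skin and connective tissue, with a summed level of 588 TPM over 10 markers against 4.57 to 5.91 TPM in WT and 4.65 TPM in the lowest cKO library. Of these 10 markers 5 were at 0 in at least 1 library, among them Krt5, with 2153 counts in cKO replicate 3 and at most 1 count elsewhere. The cortical markers Emx1, Emx2 and Lhx2 were present in every library. Emx1 had 1261 to 1575 counts in WT and 1330 to 1585 counts in cKO, and Emx2 had 1212 to 1387 counts in WT and 1177 to 1538 counts in cKO.

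None of the 47 replication genes was called different between the genotypes. In edgeR's quasi-likelihood test 0 of 47 passed an adjusted p of 0.05, where 0 of all 13340 genes (0%) did, and each had an adjusted p of 0.99995. At an unadjusted p under 0.05, 0 of 47 were higher and 0 of 47 were lower, whereas 1.75% of all tested genes were called higher and 1.81% lower by that rule. DESeq2 and limma on log2(TPM + 1) also called 0 of 47, both adjusted and unadjusted. The log2 fold changes, cKO minus WT, ran from -0.14 to 0.16, and 17 genes lay above 0 and 30 below. This split depended on scaling, because with library totals alone it was 23 above and 24 below. Over all tested genes 50.8% lay above 0. The median was -0.029 for the 47 genes and 0.0019 for all genes tested.

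A test that misses its threshold does not show that a gene was equal in both genotypes, so the intervals are given. The fit had genotype as its only term, so differences shared by libraries of the same number count as spread. The 95% interval of the log2 fold change spanned 0 for all 47 genes. Its bounds lay between -0.66 and 0.68, and the SE of single genes ran from 0.071 for E2f1 to 0.27. Changes beyond these bounds lay outside the interval of every gene, and for genes with a small SE the interval was narrower. For 46 of the 47 genes the range among the 3 WT libraries and the range among the 3 cKO libraries were both larger, on the log2 scale, than the difference between the genotypes. The exception was E2f1. The share of all tested genes with this pattern was not computed, so the count is not read as a trait of these genes.

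**Figure D1:**
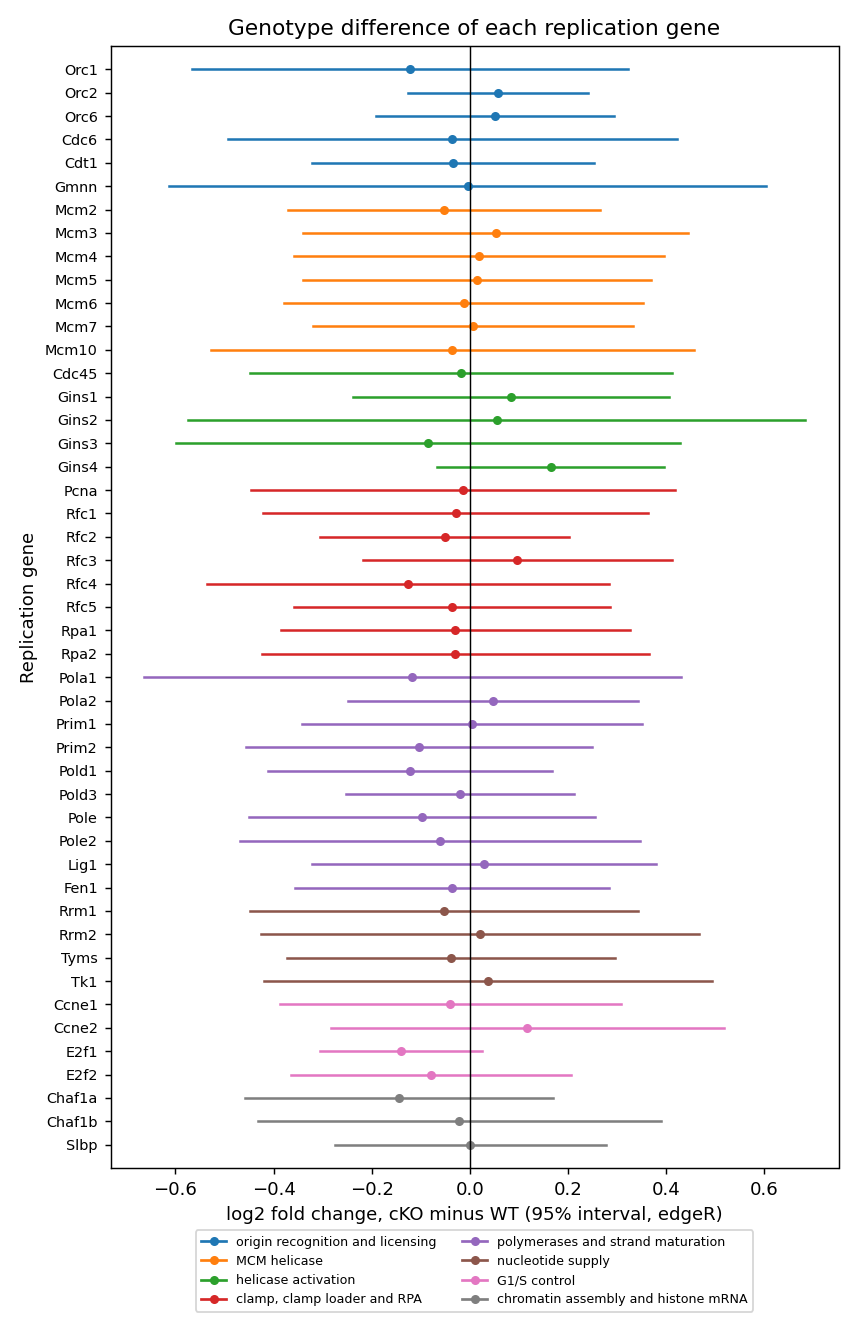
Log2 fold change (cKO minus WT, horizontal axis) of each of the 47 replication genes (vertical axis), with points for edgeR estimates, bars for 95% intervals and colours for roles. All 47 bars span 0, and the points lie between -0.14 and 0.16.

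The summed level of the 47 genes, on the TPM scale that corrects for transcript length, was 4033, 4940 and 4740 TPM in WT replicates 1, 2 and 3. It was 3819, 5128 and 4722 TPM in cKO replicates 1, 2 and 3. The group means were 4571 ± 477 and 4556 ± 670 TPM (SD, n = 3 each), so the genotypes overlapped and both had their lowest library at replicate number 1 and their highest at replicate number 2.

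Origin recognition and licensing came first in the order of replication. Gmnn, the inhibitor of relicensing, had the highest mean level of this group by TPM, but at 85.9 TPM it was practically level with Orc6 at 85.8 TPM. The CPM values of Gmnn were 19.5, 35.8 and 31.4 in WT and 19.8, 35.1 and 31.5 in cKO, in the order of replicates 1, 2 and 3. The WT values spread 1.84-fold, and each cKO library lay close to the WT library of the same number. The difference of the genotypes was a log2 fold change of -0.0045 (SE 0.26), positive at 0.020 with library totals alone. Orc1, the largest subunit of the origin recognition complex and the least abundant of the 47 genes at a mean of 7.02 TPM, gave 9.30, 13.1 and 10.6 CPM in WT and 7.68, 11.8 and 10.9 CPM in cKO. Its values overlapped between the genotypes, with a log2 fold change of -0.12 (SE 0.19). Over the 6 genes of this group (also Orc2, Orc6, Cdc6 and Cdt1) the median log2 fold change was -0.020, 2 lay above 0 and 4 below.

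The MCM genes encode the ring-shaped helicase, MCM2 to MCM7, and the initiation factor Mcm10. Mcm7 was the most abundant of them, with 298, 383 and 353 CPM in WT and 285, 403 and 351 CPM in cKO. These values overlapped, and the log2 fold change was 0.0059 (SE 0.14). Mcm3, with the largest fold change of the group, gave 164, 216 and 207 CPM in WT and 155, 243 and 210 CPM in cKO, a log2 fold change of 0.053 (SE 0.17). The cKO libraries thus held both the lowest and the highest Mcm3 value. Mcm2 lay nearly as far from 0 on the other side, at -0.052 (SE 0.14). Of the 7 genes 4 lay above 0 and 3 below, with a median log2 fold change of 0.0059.

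The ring contains 1 copy of each of its 6 subunits, but the mRNA levels were unequal. Mean levels over the 6 libraries were 336 TPM for Mcm7, 188 for Mcm6, 152 for Mcm3, 149 for Mcm2, 113 for Mcm4 and 109 for Mcm5. The SDs over the libraries were 12.7 to 33.8 TPM, a spread that includes differences the subunits shared between libraries. Within libraries the order of Mcm3 and Mcm2 changed. Mcm4 lay above Mcm5 in all but WT replicate 1, with 97.4 against 98.1 TPM there. Mcm7 made up 31.5% to 33.1% of the summed level of the 6 subunits in every library, although that sum ranged from 869 to 1191 TPM. The mean share of Mcm7 was 32.1% ± 0.47 in WT and 32.2% ± 0.80 in cKO (SD, n = 3 each). The proportions of the subunits therefore varied far less between libraries than their sum did.

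Among the genes of helicase activation, Gins4 was both the most abundant and the one with the largest fold change. Gins4 is 1 of the 4 subunits of GINS, the complex that joins Cdc45 and MCM in the active helicase. It gave 31.7, 37.1 and 34.3 CPM in WT and 34.6, 39.8 and 41.1 CPM in cKO. Each cKO value lay above the WT value of the same number, but the lowest cKO library lay below the highest WT library. On the TPM scale the lowest cKO library (69.3 TPM) was just above the highest WT library (69.2 TPM). The log2 fold change was 0.16 (SE 0.10), the largest increase among the 47 genes, and its unadjusted p in edgeR was 0.139. Without cKO replicate 1, 13488 genes were tested and Gins4 gave 0.24, with an unadjusted edgeR p of 0.0420 and an adjusted p of 0.626. Of the other GINS subunits, Gins1 (0.083) and Gins2 (0.055) also lay above 0, while Gins3 (-0.085) lay below. With Cdc45 (-0.019) the group had 3 genes above 0 and 2 below (median 0.055). By level, Gins4 at 70.4 TPM and Gins1 at 68.2 TPM stood close together, Gins2 followed at 57.0 TPM and Gins3 was lowest at 15.4 TPM. The SDs over the libraries were 5.76, 6.93, 13.46 and 2.93 TPM, a spread that includes differences the subunits shared between libraries. Within every library Gins2 lay below Gins1 and Gins4, and Gins3 lay below Gins2.

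The clamp group held the most abundant of all 47 genes, Pcna, whose product encircles DNA and tethers the polymerases. Pcna gave 239, 371 and 354 CPM in WT and 258, 371 and 325 CPM in cKO. In both genotypes the library numbered 1 was the lowest, and the genotypes overlapped. The log2 fold change was -0.014 (SE 0.19), positive at 0.0098 with library totals alone. Rfc4, a subunit of the clamp loader that opens the ring, had the largest fold change of this group at -0.13 (SE 0.18). Its values were 29.0, 45.0 and 39.9 CPM in WT and 28.6, 37.8 and 38.0 CPM in cKO. Of the 8 genes, with Rfc1, Rfc2, Rfc3, Rfc5 and the RPA subunits Rpa1 and Rpa2, 1 lay above 0 and 7 below (median -0.030), and all 8 had an interval that spanned 0. The subunits of the clamp loader ranged in level from 126 TPM for Rfc2 and 118 TPM for Rfc3 down to 81.2 TPM for Rfc4, 66.0 TPM for Rfc5 and 52.9 TPM for Rfc1. The SDs of Rfc2 and Rfc3 over the libraries were 8.60 and 12.2 TPM, a spread that includes differences the subunits shared between libraries. Within libraries Rfc2 lay above Rfc3 in all but cKO replicate 2, with 127 against 134 TPM there.

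The polymerase group was led in level by Prim1, the catalytic subunit of primase, which lays down the RNA primers. Prim1 gave 53.9, 78.0 and 65.0 CPM in WT and 56.5, 75.4 and 65.7 CPM in cKO, a log2 fold change of 0.0047 (SE 0.15). The 3 values of either genotype fell into the same range. Pold1, the catalytic subunit of the lagging-strand polymerase delta, had the largest fold change of the group. It gave 84.7, 90.5 and 99.9 CPM in WT and 72.9, 101 and 79.1 CPM in cKO. The cKO values lay on both sides of the WT values, and the log2 fold change was -0.12 (SE 0.13). Without cKO replicate 2, the highest library, Pold1 gave -0.27, with an unadjusted edgeR p of 0.0259 and an adjusted p of 0.999. Of the 10 genes, which also include the ligase Lig1 and the flap nuclease Fen1, 3 lay above 0 and 7 below (median -0.049). In the polymerase alpha-primase complex Prim1 stood at 110 TPM, Prim2 at 67.0 TPM, Pola2 at 53.9 TPM and Pola1 at 23.1 TPM.

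**Figure D2:**
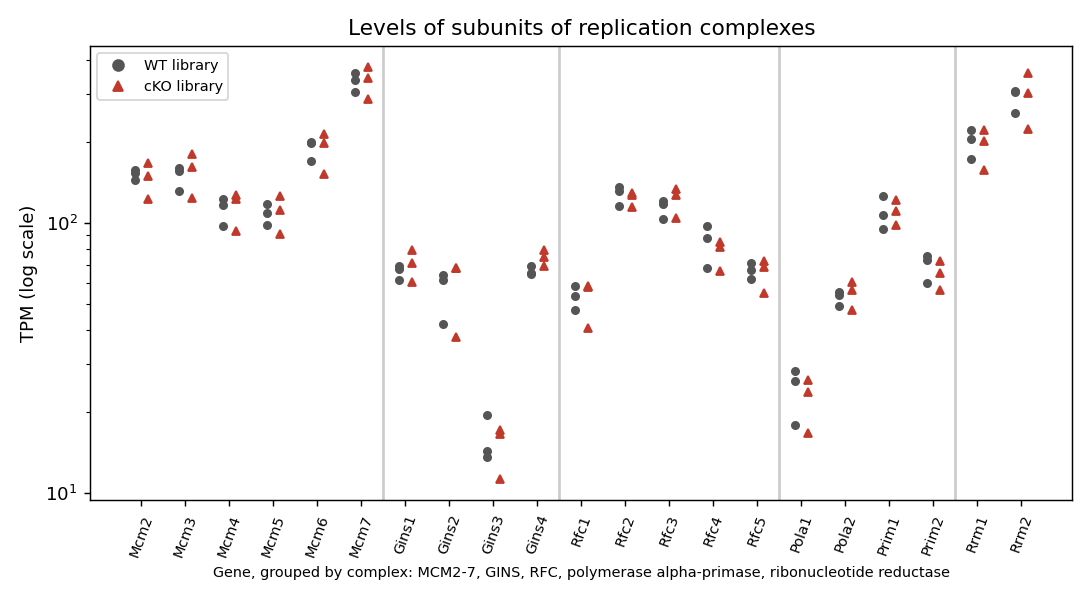
Level in TPM (vertical log axis) of the subunits of 5 replication complexes (horizontal axis) in the 3 WT libraries (circles) and the 3 cKO libraries (triangles). Mcm7, at a mean of 336 TPM, lies above the other MCM subunits, Gins3 at 15.4 TPM and Pola1 at 23.1 TPM are lowest in their complexes, and the genotypes overlap for every gene shown except Gins4, whose lowest cKO library (69.3 TPM) is just above the highest WT library (69.2 TPM).

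Ribonucleotide reductase, which makes deoxyribonucleotides, has a large subunit encoded by Rrm1 and a small one encoded by Rrm2. Rrm2 gave 218, 287 and 284 CPM in WT and 194, 334 and 272 CPM in cKO, a log2 fold change of 0.021 (SE 0.19). The cKO libraries spread 1.72-fold and enclosed all 3 WT values. Rrm1 gave 290, 406 and 366 CPM in WT and 266, 402 and 355 CPM in cKO, a log2 fold change of -0.053 (SE 0.17). The Rrm2 share of the summed TPM of both was 58.0% to 61.9% in the 6 libraries. Thymidylate synthase (Tyms) and thymidine kinase (Tk1), the other 2 genes of nucleotide supply, also had intervals that spanned 0, and the group had 2 genes above 0 and 2 below (median -0.0090).

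The G1/S group bears most directly on the study's question. E2f1, an activator of S phase genes, gave 56.8, 52.2 and 56.2 CPM in WT and 48.2, 52.1 and 49.5 CPM in cKO. On the CPM scale it was the only one of the 47 genes with every cKO library below every WT library, a pattern found in 4.83% of all tested genes, and none of the 47 showed the opposite pattern, found in 4.21%. The gap was narrow, since the lowest WT library and the highest cKO library differed by less than the WT libraries did among themselves. On the TPM scale the separation was lost, since cKO replicate 2 (43.12 TPM) lay above the library labelled WT replicate 2 (43.05 TPM). The log2 fold change was -0.14 (SE 0.071, 95% interval -0.31 to 0.025), with an unadjusted p of 0.0854 in edgeR, the lowest of the 47, and it stayed below 0 in all 14 alternative fits. E2f2, which acts alike, gave 30.2, 28.1 and 30.1 CPM in WT and 24.5, 33.1 and 26.1 CPM in cKO, a log2 fold change of -0.080 (SE 0.12). Its cKO libraries lay on both sides of the WT libraries.

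Cyclin E is the partner of Cdk2 at the entry into S phase and is encoded by Ccne1 and Ccne2, given here although neither leads the group in level or in fold change. Ccne1 gave 17.7, 24.8 and 23.6 CPM in WT and 18.7, 23.8 and 21.7 CPM in cKO, a log2 fold change of -0.040 (SE 0.15). Ccne2 gave 21.8, 33.4 and 29.4 CPM in WT and 25.7, 35.1 and 31.0 CPM in cKO, a log2 fold change of 0.12 (SE 0.17). Both overlapped between the genotypes, and the whole G1/S group had 1 gene above 0 and 3 below (median -0.060).

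Chromatin assembly follows the fork. Slbp, which binds the stem-loop of histone mRNA and was the most abundant of this group, gave 76.5, 98.5 and 90.4 CPM in WT and 76.6, 98.0 and 91.0 CPM in cKO. The libraries of the same number were nearly equal, with a log2 fold change of 0.00093 (SE 0.12). Chaf1a, the large subunit of the histone chaperone CAF-1, gave 74.1, 86.4 and 85.3 CPM in WT and 59.5, 87.1 and 76.0 CPM in cKO. It had the largest decrease of the 47 genes, a log2 fold change of -0.14 (SE 0.14), and its interval spanned 0. The cKO replicate 1 library was the lowest, and without it the value was -0.00081. With Chaf1b the group had 1 gene above 0 and 2 below (median -0.021).

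What the replication genes did share was a difference between libraries of the same genotype. In each genotype most of them were lowest in replicate 1, highest in replicate 2 and between in replicate 3. For each gene the deviation of a library from the gene's mean over the 6 libraries was taken on the log2 CPM scale, and the median deviation over the 47 genes was -0.21, 0.17 and 0.075 in WT replicates 1, 2 and 3. It was -0.32, 0.22 and 0.055 in cKO replicates 1, 2 and 3, while the median over all tested genes lay between -0.0092 and 0.0078 in every library. The group means of these medians were 0.012 ± 0.20 in WT and -0.015 ± 0.28 in cKO (SD, n = 3 each). The difference of -0.027 between the genotypes was smaller than either SD.

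By gene, 26 of the 47 were highest in cKO replicate 2 and 18 in the library labelled WT replicate 2. The lowest library was cKO replicate 1 for 33 genes and WT replicate 1 for 13, and Cdt1 alone was lowest in cKO replicate 3. For 41 of the 47 genes both libraries numbered 1 lay below the other 4, compared with 20.0% of all tested genes. For 33 of the 47 both libraries numbered 2 lay above the other 4, compared with 11.6% of all tested genes. All 7 MCM genes, all 8 clamp, loader and RPA genes, all 4 nucleotide genes and all 3 chromatin genes were among the 41, with 9 of 10 polymerase genes, 4 of 6 licensing genes, 4 of 5 helicase activation genes and 2 of 4 G1/S genes. The median of the highest over the lowest value within a genotype was 1.31 in WT and 1.46 in cKO for the 47 genes, and 1.18 and 1.20 for all genes tested. The labels do not say what libraries of the same number have in common. The series description mentions 3 batches of sequencing but not which libraries each held, so the part of batch in this spread was not tested.

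**Figure D3:**
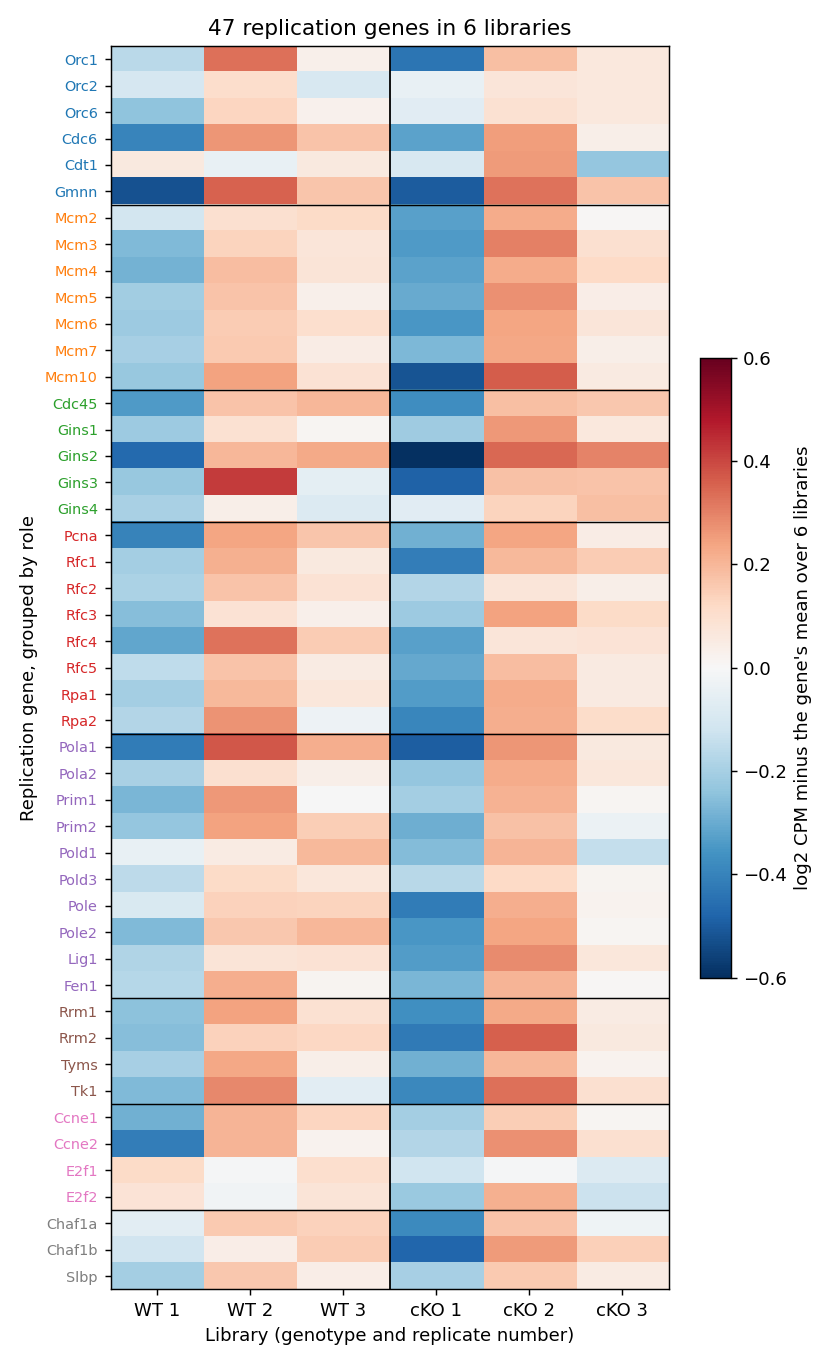
Log2 CPM of each of the 47 replication genes (rows, grouped and coloured by role) minus the gene's mean over 6 libraries, in the 3 WT and 3 cKO libraries (columns), with blue below and red above the mean. The columns WT 1 and cKO 1 are blue for most genes and WT 2 and cKO 2 are red, with medians of -0.21, -0.32, 0.17 and 0.22.

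The size of this spread differed among the genes. It is given as the mean log2 CPM of the libraries numbered 2 minus that of the libraries numbered 1, over both genotypes. The median was 0.47 for the 47 genes, 46 of which were positive (97.9%), compared with a median of 0.0020 over all tested genes, 50.3% of which were positive. The genes named next were picked once their values were known. The largest values were 0.85 for Gmnn, 0.80 for Gins2 and 0.77 for Pola1, that is 1.80-fold, 1.74-fold and 1.71-fold. The smallest were -0.0043 for E2f1, 0.12 for Cdt1, 0.16 for Orc2, 0.17 for E2f2 and 0.22 for Gins4. E2f2 was not steady, since its highest cKO value was 1.35 times its lowest, but in WT it was slightly lower in replicate 2 than in replicate 1. Cdt1 gave 48.4, 45.1 and 48.4 CPM in WT and 43.6, 55.5 and 39.6 CPM in cKO, so that in WT its order among the libraries was not that of the MCM genes it helps to load. The spread was alike in genes with and without an E2F match in the promoter, with medians of 0.48 in 14 genes and 0.45 in 24 genes.

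The GC content of the transcripts moved with the spread. Across the 47 genes the spread and the GC content of the longest coding transcript had a Spearman rho of -0.361, and across 12887 of the 13340 tested genes it was -0.306. Both are descriptions across genes measured in the same libraries. E2f1, Cdt1 and E2f2 had a GC content of 58.3%, 58.8% and 56.6%, near the top of the range of 36.3% to 60.7%, whereas Orc2 (44.4%) and Gins4 (50.9%) did not. Transcript length had a rho of 0.033 across the 47 genes and of -0.171 across the tested genes. The part of GC content in the spread was not tested.

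**Figure D4:**
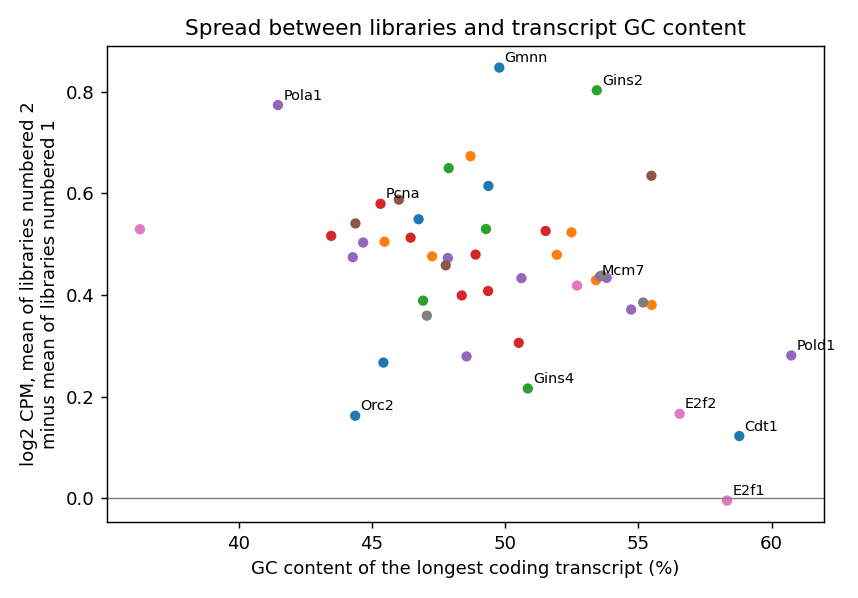
Difference between libraries numbered 2 and libraries numbered 1 in mean log2 CPM (vertical axis) against GC content of the longest coding transcript in percent (horizontal axis), 1 point for each of the 47 replication genes, coloured by role as in the plot of fold changes. E2f1, Cdt1 and E2f2 lie low and at high GC content, Orc2 and Gins4 lie low at 44.4% and 50.9%, and Gmnn, Gins2 and Pola1 lie highest.

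When the genotypes were set side by side within a replicate number, the direction was not the same. In the libraries numbered 1, 13 of the 47 genes were higher in cKO and 34 lower, with a median difference of -0.085 in log2 CPM. With number 2 it was 28 higher and 19 lower (median 0.018), and with number 3 it was 20 higher and 27 lower (median -0.011). Over all tested genes the cKO library was the higher one for 50.4%, 51.3% and 46.2%.

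Since the spread within a genotype exceeded the difference between genotypes, single libraries set the sign of the median. Without WT replicate 1 the median log2 fold change of the 47 genes was -0.12, with 4 genes above 0 and 43 below. Without the library labelled WT replicate 2 it was 0.070, with 37 above and 10 below, and without WT replicate 3 it was 0.0070, with 25 above and 22 below. Without cKO replicate 1 it was 0.11, with 44 above and 3 below. Without cKO replicate 2 it was -0.14, with 4 above and 43 below, and without cKO replicate 3 it was -0.052, with 14 above and 33 below. Leaving out cKO replicate 3 together with the library labelled WT replicate 2 gave 0.046, with 33 above and 14 below. In none of these fits did any of the 47 genes pass an adjusted p of 0.05 in edgeR, and over all 14 alternatives the lowest adjusted p of any of them was 0.609. The sign of the fold change was kept in all 14 by 5 of the 47 genes, which were Orc2 and Gins4 above 0 and Pold1, E2f1 and Chaf1a below.

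Other genes of the cell cycle were read from lists for comparison. A further 47 replication genes, such as the histone chaperone Nasp (the most abundant at 385 TPM), had 19 genes above 0 and 28 below with a median log2 fold change of -0.011. Of these, 0 passed an adjusted p of 0.05 in edgeR. At an unadjusted p under 0.05, which called 1.75% of all tested genes higher and 1.81% lower, 0 were higher and 1 was lower. That gene was Chtf18, a subunit of an alternative clamp loader, with 32.9, 31.9 and 30.2 CPM in WT and 25.1, 29.2 and 27.3 CPM in cKO (log2 fold change -0.22, SE 0.091, unadjusted edgeR p 0.0417). Both libraries numbered 1 were lowest for 35 of these 47 genes, and both libraries numbered 2 were highest for 28.

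The regulators upstream of the replication genes were the 15 other members of the E2F, DP, Rb and MuvB families. They had 5 genes above 0 and 10 below, with a median of -0.035, and without cKO replicate 1 the median was 0.057. In edgeR 0 of the 15 passed an adjusted p of 0.05. At an unadjusted p under 0.05, which called 1.75% of all tested genes higher and 1.81% lower, 0 were higher and 1 was lower. The one lower was E2f3, an activator like E2f1, with 92.3, 93.1 and 85.1 CPM in WT and 76.4, 85.9 and 71.5 CPM in cKO (log2 fold change -0.21, SE 0.084, unadjusted edgeR p 0.0362). Its genotypes overlapped by the margin between WT replicate 3 and cKO replicate 2. The log2 fold changes of the 3 activating E2F genes, E2f1, E2f2 and E2f3, lay below 0, and none passed an adjusted p of 0.05. These genes were put together once their values were known. That of E2f2 was 0.013 without cKO replicate 1. Over all tested genes 50.8% lay above 0, so the shared sign is not read as a trait of these genes.

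Ccnd2, a D-type cyclin that acts before cyclin E and that the study followed up, gave 998, 1569 and 1593 CPM in WT and 748, 1218 and 1015 CPM in cKO. Within each replicate number Ccnd2 was lower in cKO than in WT, while the genotypes overlapped through WT replicate 1. The log2 fold change was -0.48 (SE 0.22), with an unadjusted p of 0.0626 and an adjusted p of 0.99995 in edgeR. The study's own analysis of its sequencing counted Ccnd2 among the genes downregulated in E13.5 cKO cortex, a call that the edgeR test used here did not make. By RT-qPCR the study also found less Ccnd2 mRNA in E13.5 cKO cortex, and it reported faster decay of this mRNA in cultured cKO cells. Over the 8 genes of D cyclins, their kinases and their inhibitors, 2 lay above 0 and 6 below, with a median of -0.045.

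The spread between libraries was not particular to S phase. Of 44 genes of G2 and mitosis, 42 were lowest in both libraries numbered 1 and 34 highest in both libraries numbered 2. Their median log2 fold change was -0.054, with 10 genes above 0 and 34 below. In edgeR 0 passed either the adjusted or the unadjusted threshold, and the unadjusted one called 1.75% of all tested genes higher and 1.81% lower. Ube2c, the ubiquitin-conjugating enzyme of the anaphase-promoting complex, was the most abundant of the 44 at 607 TPM. The median deviation of the 44 genes was -0.16, 0.19 and 0.11 in WT and -0.33, 0.22 and 0.014 in cKO.

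Markers of cell types in the cortex moved with this spread too. The 12 radial glia markers, which include Pax6, Sox2 and Nes, had median deviations of -0.16, 0.097 and 0.098 in WT and -0.18, 0.23 and -0.034 in cKO, and 7 of the 12 were lowest in both libraries numbered 1. Their summed level was 2951 to 3896 TPM in WT and 2832 to 3866 TPM in cKO. The 12 markers of cortical neurons, which include Tubb3, Dcx and Neurod6, went the other way in the libraries numbered 1 and 2, with 0.14, -0.074 and 0.050 in WT and 0.19, -0.14 and -0.16 in cKO. None of the 12 was lowest in both libraries numbered 1. Their summed level was 4017 to 5072 TPM in WT and 3978 to 5320 TPM in cKO. The 7 markers of intermediate progenitors, with 1200 to 1592 TPM in WT and 1180 to 1455 TPM in cKO, had none lowest in both libraries numbered 1. Their median deviations were 0.22, -0.064 and 0.025 in WT and 0.11, 0.060 and -0.20 in cKO. In each genotype the median was thus highest in the library numbered 1, where that of the replication genes was lowest. Single markers differed. Eomes, Gadd45g, Mfap4 and, narrowly in cKO, Insm1 were highest there in both genotypes. Among the cKO libraries Neurog2, Neurog1 and Btg2 were highest in replicate 2, and among the WT libraries Btg2 was highest in replicate 3. No marker of these 3 lists was at 0 in any library. The part of cell type composition in the spread of the replication genes was not tested.

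**Figure D5:**
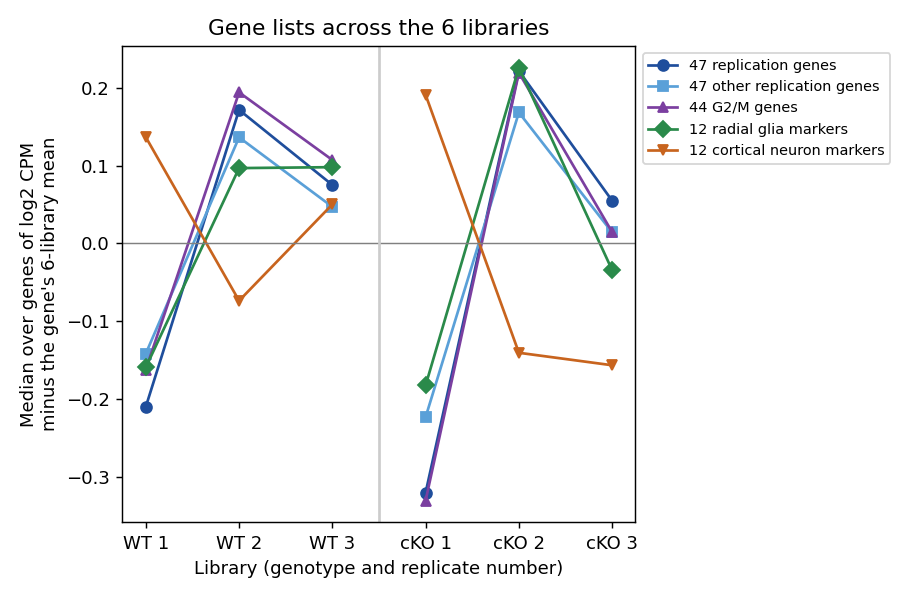
Median over each gene list of log2 CPM minus the gene's 6-library mean (vertical axis) in each of the 6 libraries (horizontal axis), with lines joining the points of a list within a genotype. The 47 replication genes, the 47 other replication genes, the 44 G2/M genes and the 12 radial glia markers are lowest in both libraries numbered 1, where the 12 neuron markers are highest.

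Tissues other than cortex were present in unequal amounts. The 10 erythroid markers summed to 4249 to 6193 TPM in WT and 4606 to 7689 TPM in cKO, and none was at 0. The sum was highest in the libraries numbered 1 of both genotypes, but single markers differed. On the CPM scale Hbb-y and Hbb-bh1 were highest in replicate 2 of both genotypes. Among the cKO libraries Hba-x and Slc4a1 were highest in replicate 2. The 8 markers of endothelium and microglia summed to 54.1 to 83.6 TPM in WT and 58.0 to 79.0 TPM in cKO. The skin and connective tissue transcripts stood out in cKO replicate 3 alone, where the 47 replication genes were at a median deviation of 0.055, close to the 0.075 of WT replicate 3. The part of blood and other tissues in the values of the replication genes was not tested.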

How the data were processed

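RNA sequencing of E13.5 mouse cortex was analysed in 3 WT and 3 cKO libraries, grouped by the sample titles. Total RNA was extracted with Trizol and mRNA libraries were sequenced on a DNBSEQ platform. The submitters' processing notes name HISAT2 2.2.1, Bowtie2 2.4.5, RSEM 1.3.1 and the builds GRCm38 and mm10. Annotation and strand use in counting are not given in the sources used here, so overlapping and antisense genes are uncertain. The authors deposited estimated counts without scaling (10.9% of values were not whole). The authors also deposited TPM values, corrected for transcript length and brought to a common sum. FPKM values, also deposited by the authors, were summed per library and otherwise not used, and 6 columns of group averages were not used.

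Estimated counts were rounded. Genes were kept by filterByExpr (minimum count 10, minimum total 15) and scaled by TMM (0.987 to 1.03). The quasi-likelihood test of edgeR 4.0.16 (R 4.3.3) was fitted to all 13340 genes with genotype as the only term, two-sided, with Benjamini-Hochberg adjustment and a threshold of 0.05. Deviations were taken from log2 CPM (prior count 2), and 0 counts allow up to 3 counts of a library (0.184 to 0.189 CPM). At most 1.66% of tested genes had equal counts in a pair of libraries. P-values measure the spread between libraries, which the study describes as independent experiments. The members and gene lists were chosen with earlier results of these data known. In each role, the gene with the highest mean TPM and the one with the largest fold change are named, with Ybx1 and Ccnd2, and from the other replication, E2F and G2/M lists the most abundant gene and those with an unadjusted p under 0.05. E2F and G1/S genes named beyond this rule were chosen after their values were seen. Alternatives were RLE factors, library totals, other filters, DESeq2 1.42.0, limma 3.58.1 on log2(TPM + 1), the replicate number as a block, and libraries left out. Scripts were tested on simulated data. Promoters are RefSeq windows of GRCm38.p6. Protein sequences were not analysed here.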

Additional observations from a re-analysis of the deposited data

How the results depend on the processing

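In 14 alternatives, 0 of the 47 replication genes passed an adjusted p of 0.05, while the fold changes of most, being close to 0, changed sign in at least 1 of them. The cause was not tested. With DESeq2, 2 genes were called higher and 2 lower among all tested, and Ybx1 gave -2.996 (adjusted p 5.46e-10). With the replicate number as a block it was 1 and 1 and Ybx1 -2.95 (adjusted edgeR p 0.0381), and leaving out cKO replicate 3 together with the library labelled WT replicate 2 gave 1 and 1 and Ybx1 -3.49 (adjusted edgeR p 0.0188). Each library left out in turn gave 0 to 1 higher, 0 to 1 lower and -3.28 to -2.75 for Ybx1. Unadjusted calls as reported were 234 higher and 242 lower. They were 320 and 169 with library totals, 390 and 260 with no filter, 148 and 192 with DESeq2, 247 and 168 with limma on TPM, 476 and 614 with the block, 105 and 141 with both libraries left out, and 121 to 571 higher and 118 to 482 lower with 1 library left out (the extremes without WT replicate 3 and without cKO replicate 1). Log2 fold changes that turned were 0.020 for Gmnn and 0.0098 for Pcna with library totals, -0.00079 for Prim1 and -0.0046 for Slbp with no filter, -0.00047 for Mcm7 and -0.0018 for Rrm2 with the block, and 0.11 for Gmnn, 0.086 for Pcna, 0.027 for Rrm1 and 0.046 for Ccne1 with both libraries left out. With 1 library left out they ran from -0.25 to 0.050 for Orc1, -0.22 to 0.21 for Gmnn, -0.10 to 0.22 for Mcm3, -0.12 to 0.14 for Mcm7, -0.18 to 0.12 for Pcna, -0.28 to 0.014 for Rfc4, -0.12 to 0.15 for Prim1, -0.19 to 0.10 for Rrm1, -0.18 to 0.21 for Rrm2, -0.089 to 0.10 for Slbp, -0.17 to 0.056 for Ccne1, -0.035 to 0.26 for Ccne2 and -0.22 to 0.013 for E2f2. Deviations of same-numbered libraries of the genotypes correlated at 0.41, 0.31 and -0.020 for numbers 1, 2 and 3. Those of differently numbered libraries correlated at -0.43 to 0.26. Whether equal replicate numbers mark pairs is not given by the labels and was not tested. With the block, 1 of the 47 was higher at an unadjusted p under 0.05, Gins4 (0.16, unadjusted p 0.0486, adjusted edgeR p 0.609). The interval of each gene came from the fit with genotype as the only term, so it includes the spread shared by same-numbered libraries. Intervals from the fit with the block are not given here. The smallest count of any of the 47 in a library was 123.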
